A study of Mus musculus with 3 samples.

Results

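The myeloid lineage transcription factors described here are 9 of the 18193 genes named on the array: *Spi1*, *Cebpa*, *Cebpb*, *Cebpd*, *Runx1*, *Maf*, *Bhlhe40*, *Bhlhe41* and *Id2*. They were read on all 24 probe sets, of 45037, whose only gene symbol is one of these. The arrays came from a mouse model in which 4T1 mammary carcinoma cells grow in the mammary gland of BALB/c mice and spread to the lung. The mTAMs array held RNA of macrophages from the metastatic lung and the pTAMs array that of macrophages from the primary tumor of mice bearing 4T1 tumors for 5 weeks. The BMDM array held bone marrow-derived macrophages, which the study took from healthy mice. Cells of every group were sorted for CD11b and for the macrophage surface antigen that *Adgre1* encodes. The sources used here do not say whether the cells on these arrays were also Ly6C-negative, nor how many mice gave each sample. Each group was 1 array, so no difference has a replicate check and no p-value is given.

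PU.1, the product of *Spi1*, and the C/EBP proteins are the factors on which the myeloid lineage is built: PU.1 opens the macrophage enhancers, and C/EBP proteins and RUNX1 act beside it. C/EBPβ and C/EBPδ are in addition induced in mature macrophages by inflammatory signals, whereas c-Maf is known for the genes of resting and anti-inflammatory tissue macrophages. The related repressors Bhlhe40 and Bhlhe41 and the inhibitor Id2, which carries no DNA-binding region of its own, set how such programs are read.

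Values are log2 intensities, normalized together by RMA, a method that summarises the probes of a probe set. A gene was read from its probe set of highest mean, and a level above 5.3, the 95th percentile of 83 probe sets for chemosensory receptors, was taken as detected. All 9 genes passed this floor on all 3 arrays, and 22 of their 24 probe sets did. A gene was called higher or lower when its levels differed at least 2-fold, a log2 difference of 1, between a pair of arrays. Probe sets of the same gene gave differences that varied with an SD of 0.25 between mTAMs and pTAMs, 0.44 between mTAMs and BMDM and 0.35 between pTAMs and BMDM. This SD is the only measure of error here, and it does not cover the spread between animals. The 2 comparisons with BMDM share the BMDM array, so they are not independent of each other.

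All 10 macrophage markers were above the floor on each array, with summed levels on the linear scale of 60133 in mTAMs, 62158 in pTAMs and 67604 in BMDM. Markers of other cells were also read. The 12 neutrophil markers summed to 81518 in mTAMs, 35050 in pTAMs and 1789 in BMDM, with 12, 12 and 10 of them above the floor. Of 10 alveolar macrophage markers, 10 were above the floor in mTAMs, 5 in pTAMs and 2 in BMDM, with sums of 17068, 3553 and 809. Immediate early and heat shock genes, which rise while tissue is dissociated, summed to 105452 in mTAMs, 61981 in pTAMs and 8993 in BMDM. Of 6 NK cell markers, *Klrk1* was above the floor on each array (7.05 in mTAMs, 8.13 in pTAMs and 5.68 in BMDM), and *Ncr1*, *Klra8*, *Prf1*, *Gzma* and *Eomes* were not on any. Of 6 B cell markers, *Pax5* read 5.97 on each array and *Blk* passed the floor in BMDM alone (5.36), while *Ms4a1*, *Cd79a*, *Cd79b* and *Ebf1* passed it on none. In such bulk samples, fewer cells of a type and less RNA per cell cannot be told apart.

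Between mTAMs and pTAMs, 1 of the 9 genes was at least 2-fold higher (*Cebpd*) and 1 was lower (*Maf*). Over all 11801 genes compared, 5.36% were higher and 2.58% lower. Between mTAMs and BMDM, 4 were higher (*Cebpb*, *Cebpd*, *Bhlhe40* and *Id2*), where 11.5% of 11945 genes were, and 1 was lower (*Maf*), where 14.4% were. Between pTAMs and BMDM, 3 were higher (*Cebpb*, *Bhlhe40* and *Id2*), where 8.78% of 11859 genes were, and 0 were lower, where 7.5% were. The median log2 difference of the 9 genes was 0.14 between mTAMs and pTAMs, 0.97 between mTAMs and BMDM and 0.38 between pTAMs and BMDM, beside medians over all genes of -0.06, -0.11 and -0.05.

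**Figure D1:**
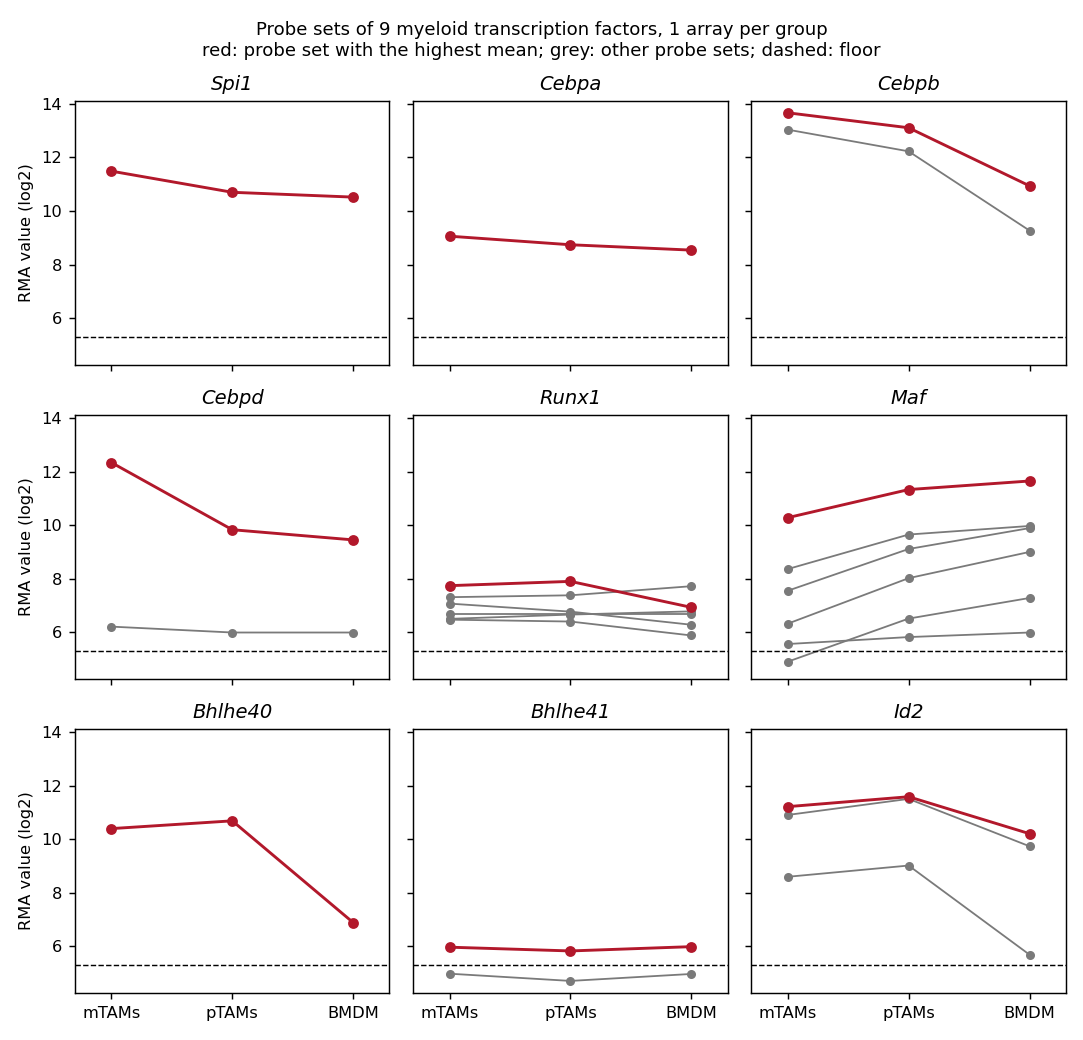
Log2 RMA intensity (y axis) of the 9 transcription factors on the mTAMs, pTAMs and BMDM arrays (x axis), 1 panel a gene and 1 line a probe set, with the floor of 5.3 drawn. *Cebpd* stands high in mTAMs alone (12.34), *Bhlhe40* is high on both TAM arrays (10.40 and 10.69) against BMDM (6.89), and the *Maf* lines run upward toward BMDM.

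*Spi1* encodes PU.1, which every macrophage needs. Its 1 probe set read 11.49 in mTAMs, 10.70 in pTAMs and 10.52 in BMDM. mTAMs were the highest of the 3 arrays, and pTAMs and BMDM lay within the probe set SD of each other (0.18). The difference was 0.79 (1.73-fold) between mTAMs and pTAMs and 0.97 (1.96-fold) between mTAMs and BMDM, both short of the threshold. As large a difference upward was found for 7.19% and 11.8% of all genes compared. With cyclic loess normalization the difference between mTAMs and BMDM became 1.20, past the threshold.

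Of 26 genes known as targets of PU.1, 23 were on the array. Between mTAMs and pTAMs 2 were higher and 1 lower, with a median of 0.19. *Csf3r*, the receptor of granulocyte colony-stimulating factor and itself a neutrophil marker, was 5.66-fold higher in mTAMs (12.52) than in pTAMs (10.02), whereas *Fcgr1*, the high-affinity IgG receptor, was 2.73-fold lower in mTAMs (10.58) than in pTAMs (12.03). Against BMDM, 7 targets were higher in mTAMs and 5 in pTAMs, and 0 were lower, with medians of 0.58 and 0.49. *Csf1r*, which encodes the receptor of the macrophage growth factor M-CSF, read 12.89 in mTAMs, 13.27 in pTAMs and 13.35 in BMDM, and was not among them. Relatives of PU.1 in the ETS family gave 0 calls in 14 genes between mTAMs and pTAMs. *Ets1*, a member of that family studied mostly in lymphocytes and endothelium, read 8.0 in mTAMs, 8.99 in pTAMs and 5.66 in BMDM, which is 5.06-fold and 10.1-fold above BMDM. Its 4 probe sets varied from 0.72 to 2.34 between mTAMs and BMDM and from 1.27 to 3.33 between pTAMs and BMDM.

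*Cebpa*, the C/EBP gene needed for progenitors to enter the granulocyte and monocyte path, read 9.06 in mTAMs, 8.74 in pTAMs and 8.54 in BMDM on 1 probe set. The order was that of *Spi1*, but no step reached the threshold. The differences were 0.32 between mTAMs and pTAMs, 0.52 between mTAMs and BMDM and 0.20 between pTAMs and BMDM, the last within the probe set SD.

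*Cebpb* encodes C/EBPβ, which is induced in activated macrophages. It read 13.67 in mTAMs, 13.11 in pTAMs and 10.94 in BMDM. Both TAM arrays lay well above BMDM, by 6.63-fold in mTAMs and 4.50-fold in pTAMs, and only 0.56 apart from each other. The other probe set of *Cebpb* read 13.04 in mTAMs, 12.23 in pTAMs and 9.27 in BMDM. It kept this order with wider gaps, 13.6-fold and 7.78-fold above BMDM, and 0.81 between mTAMs and pTAMs. Among all genes compared, 3.47% were as far above BMDM in mTAMs as *Cebpb* and 3.62% in pTAMs.

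The window of 250 bases before the start of *Cebpb* is shown because this gene was higher than in BMDM on both TAM arrays and CREB, which binds the half-site TGACG, is known to drive it. The sequence is that of RefSeq on GRCm38.p6, chr2:167688665-167688914, plus strand, with each match to TGACG on either strand in capitals (CGTCA where the match is on the other strand).
Cebpb: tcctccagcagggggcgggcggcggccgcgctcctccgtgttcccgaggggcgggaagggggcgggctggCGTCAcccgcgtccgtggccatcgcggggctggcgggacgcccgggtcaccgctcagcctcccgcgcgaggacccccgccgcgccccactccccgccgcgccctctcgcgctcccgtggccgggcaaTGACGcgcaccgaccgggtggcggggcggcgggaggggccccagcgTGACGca
There were 3 matches, whose first bases lie at -180, -53 and -7 from the start. TGACG was found in such windows of 17.8% of 32851 promoters, and in none of the other 5 windows that the RefSeq table held for *Cebpa*, *Id2*, *Bhlhe41* and *Runx1*. A match of letters is not a bound site. The C/EBP palindrome TTGCGCAA (0.164% of promoters), the PU.1 site GAGGAAGT (2.44%), the RUNX site TGTGGTT (4.4%) and the MAF site TGCTGAC (3.81%), searched on both strands, had 0 matches in the 6 windows, which says only that these letters are not in them.

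*Cebpd* encodes C/EBPδ, known as an acute-phase factor that lipopolysaccharide and cytokines induce. It read 12.34 in mTAMs, 9.83 in pTAMs and 9.45 in BMDM. mTAMs stood apart, 5.70-fold above pTAMs and 7.41-fold above BMDM, while pTAMs and BMDM differed by 0.38 (1.30-fold). Between mTAMs and pTAMs 92 of the genes compared, or 0.78%, had at least as large a difference upward. The other probe set of *Cebpd* was dim, at 6.21 in mTAMs and 5.99 in both pTAMs and BMDM, and showed a difference of 0.22. Averaged over both probe sets, the differences were 1.36 between mTAMs and pTAMs and 1.55 between mTAMs and BMDM. *Cebpd* moved with the neutrophil markers, where 9 of 12 also passed the threshold upward between mTAMs and pTAMs (median 1.80). It moved as well with 9 of 10 alveolar macrophage markers (median 2.47) and 5 of 18 immediate early and heat shock genes (median 0.70). Only 5 of the 10 alveolar macrophage markers were above the floor in pTAMs, and levels below it were counted as read. For *Cidec* (5.87 in mTAMs, 3.12 in pTAMs) the measured fold is thus only at least 1.48. Of 8 mast cell or basophil markers, 5 were above the floor in mTAMs and 2 in pTAMs, with sums of 1298 and 244. Of 5 eosinophil markers, *Prg2* and *Siglecf* were above it in mTAMs and 0 in pTAMs, with sums of 852 and 67. *Siglecf* is also on the list of alveolar macrophage markers. Fibroblast markers were higher in mTAMs as well (3 of 7, median 0.90, sums of 5187 and 1201). Among the mast cell or basophil markers, *Mcpt8* read 8.90 in mTAMs and 4.89 in pTAMs, and *Kit* read 8.83 and 5.95. *Gata2* read 7.15 and 5.71, *Cpa3* 6.51 and 4.51 and *Ms4a2* 5.34 and 3.75 on the same arrays. *Fcer1a*, *Tpsb2* and *Cma1* of that list and the eosinophil markers *Epx*, *Il5ra* and *Ccr3* did not pass the floor on any array. The part of all these in the *Cebpd* difference was not tested.

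**Figure D2:**
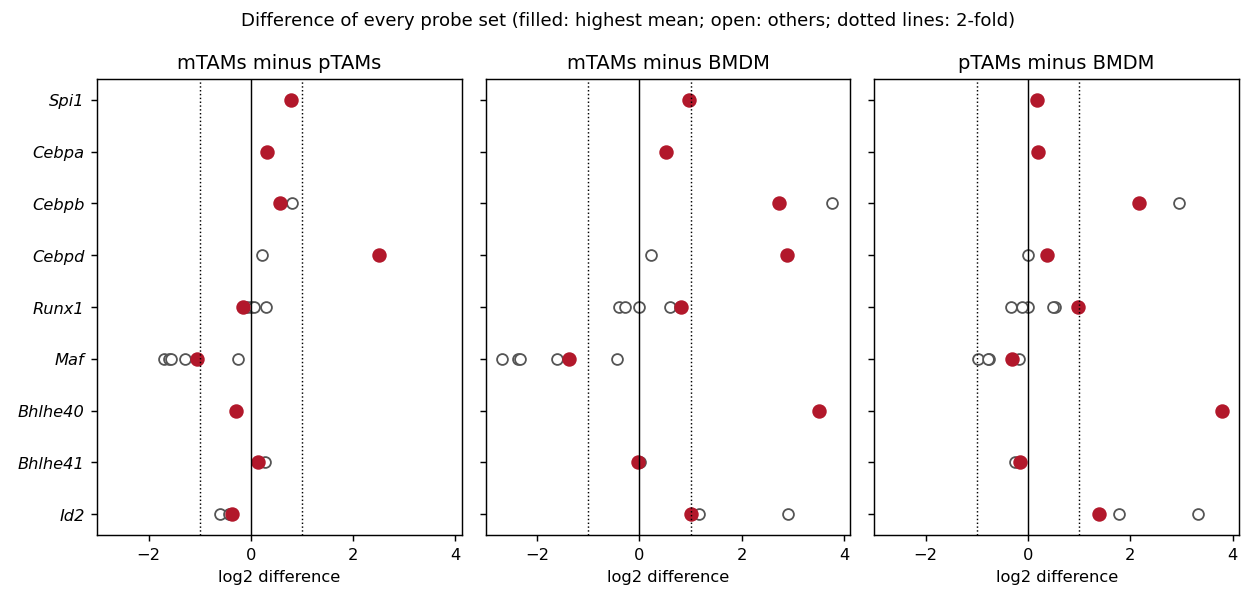
Log2 difference (x axis) of each probe set of the 9 genes (y axis) in the 3 comparisons, 1 panel each, with lines at 2-fold. In the panel of mTAMs over pTAMs 1 *Cebpd* probe set (2.51) lies past the line on the right, and 5 of the 6 *Maf* probe sets past the line on the left.

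Of 20 genes known as targets of C/EBPβ or C/EBPδ, 18 could be compared. Between mTAMs and pTAMs 6 were higher and 3 lower, with a median of 0.51. The acute-phase genes *Hp* (haptoglobin) and *Saa3* (serum amyloid A) were 6.02-fold and 3.76-fold higher in mTAMs, and *Tnf* was 4.63-fold higher. *Hp* is also on the list of monocyte markers. *Lcn2*, another of the 6 higher, is also on the list of neutrophil markers. Against BMDM 13 were higher in mTAMs and 11 in pTAMs, and 1 and 0 were lower, with medians of 3.66 and 3.65 (3.35 and 3.29 with levels below the floor raised to it). On probe sets not marked as shared between transcripts these medians were 1.73 and 1.93. *Il1b*, the gene of interleukin-1β, read 14.08 in mTAMs, 13.30 in pTAMs and 5.16 in BMDM. Since the BMDM level is below the floor, the fold over BMDM is at least 440 for mTAMs and at least 256 for pTAMs. *Saa3* read 13.38 in mTAMs, 11.47 in pTAMs and 4.43 in BMDM, which gives folds over BMDM of at least 271 for mTAMs and at least 72.0 for pTAMs.

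The granule genes that C/EBP factors drive in neutrophils were described apart, since 11 of the 14 also serve as neutrophil markers. Between mTAMs and pTAMs 10 were higher and 0 lower, with a median of 1.80. *Mpo*, the gene of myeloperoxidase, read 8.98 in mTAMs, 6.32 in pTAMs and 5.44 in BMDM. *Lcn2*, the gene of lipocalin 2, read 13.34 in mTAMs, 11.51 in pTAMs and 4.65 in BMDM. Both thus read highest in mTAMs and lowest in BMDM, an order that *Spi1*, *Cebpa*, *Cebpb* and *Cebpd* all had. In pTAMs *Lcn2* lay at least 74.0-fold above BMDM, whereas *Cebpd* lay 1.30-fold above. Of the relatives of these factors, *Ddit3*, which encodes the stress-induced CHOP, read 11.06 in mTAMs, 9.55 in pTAMs and 8.47 in BMDM, 2.85-fold above pTAMs in mTAMs. *Cebpg* stayed within 0.24 in every comparison by its brightest probe set.

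*Runx1*, which is needed for the first blood stem cells and later acts with PU.1, had 6 probe sets that did not give 1 answer. The brightest read 7.74 in mTAMs, 7.90 in pTAMs and 6.93 in BMDM, a difference of 0.81 between mTAMs and BMDM and of 0.97 between pTAMs and BMDM. Another read 7.31 in mTAMs, 7.38 in pTAMs and 7.72 in BMDM, so that BMDM was its highest array and not its lowest. Over the 6, differences ran from -0.41 to 0.81 between mTAMs and BMDM, from -0.34 to 0.97 between pTAMs and BMDM and from -0.16 to 0.30 between mTAMs and pTAMs. None reached 2-fold, and 1 probe set held the same value, 6.67, on all 3 arrays. *Cbfb*, the partner that RUNX proteins bind DNA with, read 10.45 in mTAMs, 10.79 in pTAMs and 10.91 in BMDM. *Runx3*, a relative better known from T cells and dendritic cells, differed more: it read 8.02 in mTAMs, 10.06 in pTAMs and 5.86 in BMDM, 4.11-fold lower in mTAMs than in pTAMs and 18.4-fold higher in pTAMs than in BMDM. The other *Runx3* probe set gave -0.37 and 0.55 for the same pairs.

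*Maf*, which encodes c-Maf, was the one member lower in mTAMs. Its brightest probe set read 10.28 in mTAMs, 11.33 in pTAMs and 11.65 in BMDM, 2.07-fold lower in mTAMs than in pTAMs and 2.58-fold lower than in BMDM. pTAMs and BMDM differed by 0.32, within the probe set SD. All 6 *Maf* probe sets had the order mTAMs, pTAMs, BMDM from low to high, and 5 of the 6 were at least 2-fold lower in mTAMs than on either other array. One of them read 7.55 in mTAMs, 9.11 in pTAMs and 9.89 in BMDM. Another read 6.32 in mTAMs, 8.02 in pTAMs and 9.0 in BMDM. A probe set at 4.90 in mTAMs, below the floor, read 6.51 in pTAMs and 7.28 in BMDM, which puts mTAMs at least 2.31-fold below pTAMs and at least 3.94-fold below BMDM. The probe sets thus agreed on the direction, although with cyclic loess normalization the brightest gave -0.87 between mTAMs and pTAMs, short of the threshold. *Maf* was lower where the neutrophil and alveolar macrophage marker sums were higher, whereas the 10 macrophage markers had a median difference of -0.06 between mTAMs and pTAMs and 2 of them were lower. The part of the other cells in the *Maf* difference was not tested.

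Of 18 genes known to depend on c-Maf in macrophages, 3 were lower and 2 higher in mTAMs than in pTAMs, with a median of -0.47. The scavenger receptor gene *Cd163* was 4.32-fold lower in mTAMs (7.58) than in pTAMs (9.69), and *Pf4*, which encodes platelet factor 4, was 3.43-fold lower in mTAMs (10.62) than in pTAMs (12.40). *F13a1*, the gene of coagulation factor XIII A, was 2.45-fold lower in mTAMs (11.01) than in pTAMs (12.30). The other 2 calls went the other way. *Il10*, the gene of interleukin-10, was 2.62-fold higher in mTAMs (6.97) than in pTAMs (5.58, near the floor). *Cd5l*, a secreted macrophage protein gene, read 8.11 in mTAMs, 4.87 in pTAMs and 11.60 in BMDM. With pTAMs below the floor, mTAMs were above them by at least 7.01-fold, and 11.2-fold below BMDM. Against BMDM the list was split, with 8 higher and 7 lower in mTAMs and 9 higher and 5 lower in pTAMs. Complement gene *C1qb* read 12.70 in mTAMs, 13.06 in pTAMs and 8.40 in BMDM, so that it was higher in TAMs while *Maf* was not. Of 5 relatives of c-Maf compared, *Maff*, a small Maf protein gene, was 5.13-fold higher in mTAMs and 4.63-fold higher in pTAMs than in BMDM. *Bach2*, a repressor that pairs with small Maf proteins, read 5.92 in mTAMs and 7.23 in pTAMs, 2.48-fold lower in mTAMs. Its 3 probe sets ran from -1.31 to 0.0 between these arrays.

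*Bhlhe40* encodes a repressor that binds E-boxes and supports cytokine output and division of macrophages. It had the widest range of the 9 genes: 10.40 in mTAMs, 10.69 in pTAMs and 6.89 in BMDM on its 1 probe set. mTAMs were 11.4-fold and pTAMs 13.9-fold above BMDM, with 2.19% and 1.22% of all genes as far above. mTAMs and pTAMs were 0.29 apart. Its relative *Bhlhe41* stayed near the floor, at 5.97 in mTAMs, 5.83 in pTAMs and 5.99 in BMDM, all within the probe set SD, and its other probe set was below the floor on all 3 arrays (4.98, 4.71 and 4.97). The 2 relatives thus did not move together.

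The window before *Bhlhe41* is shown because Bhlhe40 and Bhlhe41 both bind the E-box CACGTG and are known to act on each other's genes. It is RefSeq sequence on GRCm38.p6, chr6:145865421-145865670, minus strand, written 5′ to 3′ along the gene, with the E-box in capitals.
Bhlhe41: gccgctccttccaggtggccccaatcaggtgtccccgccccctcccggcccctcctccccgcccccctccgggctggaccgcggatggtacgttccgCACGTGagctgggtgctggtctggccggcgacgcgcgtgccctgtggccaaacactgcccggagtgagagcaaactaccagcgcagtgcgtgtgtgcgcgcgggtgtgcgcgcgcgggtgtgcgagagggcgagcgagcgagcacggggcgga
The E-box begins at -153, and 6.02% of promoters held 1 or more in the same window. Another lay at -71 of 1 of the 2 *Runx1* promoters. The windows of *Cebpa*, *Cebpb* and *Id2* held none.

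Bhlhe40 and Bhlhe41 act in the circadian clock, where they oppose CLOCK and BMAL1 at E-boxes. Of 13 clock genes compared, 4 were higher and 4 lower in mTAMs than in BMDM, 4 higher and 2 lower in pTAMs than in BMDM, and 1 higher and 0 lower in mTAMs than in pTAMs. *Nfil3*, a repressor in the clock that also responds to cytokines, read 11.83 in mTAMs, 10.85 in pTAMs and 7.0 in BMDM, 28.4-fold and 14.4-fold above BMDM. *Per1*, which encodes a part of the negative arm, read 10.17 in mTAMs, 8.76 in pTAMs and 6.58 in BMDM. *Dbp*, an activator whose gene is known to be repressed by Bhlhe40, read 4.70 in mTAMs, 5.44 in pTAMs and 6.83 in BMDM. It lay 2.62-fold below BMDM in pTAMs, and by at least 2.89-fold in mTAMs, where it was below the floor. Of genes known to be repressed by Bhlhe40 or Bhlhe41, 9 could be compared. In mTAMs 3 were higher and 3 lower than in BMDM (median 0.07). In pTAMs 3 were higher and 2 lower than in BMDM (median -0.16). This list includes the members *Maf*, which was among those lower in mTAMs, and *Bhlhe41*, whose own difference of -0.16 was the median in pTAMs. It also shares *Per1* and *Dbp* with the clock genes and *Csf3r* with the neutrophil markers, so it is not separate from those lists. The sources used here do not give the hours at which cells were taken. Cell division genes ran the other way from *Bhlhe40*: 18 of 18 were lower than in BMDM on both TAM arrays, with medians of -2.04 in mTAMs and -2.03 in pTAMs.

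*Id2*, whose product binds E proteins and keeps them off DNA, read 11.22 in mTAMs, 11.59 in pTAMs and 10.21 in BMDM. It was 2.01-fold above BMDM in mTAMs and 2.60-fold in pTAMs, and -0.37 between mTAMs and pTAMs. Among all genes compared, 11.4% were as far above BMDM in mTAMs as *Id2* and 6.27% in pTAMs, so the call in mTAMs lay at the threshold. The other probe sets kept this order with larger gaps. One read 10.91 in mTAMs, 11.51 in pTAMs and 9.74 in BMDM. The dimmest read 8.60 in mTAMs, 9.02 in pTAMs and 5.69 in BMDM, 7.52-fold and 10.1-fold above BMDM. Of its relatives, *Id1* had another order: it read 10.36 in mTAMs, 8.68 in pTAMs and 8.78 in BMDM, so that mTAMs were 3.20-fold above pTAMs. *Id3* read 9.24 in mTAMs, 8.41 in pTAMs and 8.53 in BMDM, with no difference of 2-fold. The E protein genes, whose products Id2 binds, were *Tcf3* at 7.90 in mTAMs, 8.40 in pTAMs and 7.90 in BMDM, *Tcf4* at 8.46, 9.30 and 8.78 and *Tcf12* at 8.73, 9.45 and 9.81 on the same arrays. Of these only *Tcf12* passed the threshold, 2.11-fold lower in mTAMs than in BMDM, and its 5 probe sets ran from -1.08 to 0.41.

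**Figure D3:**
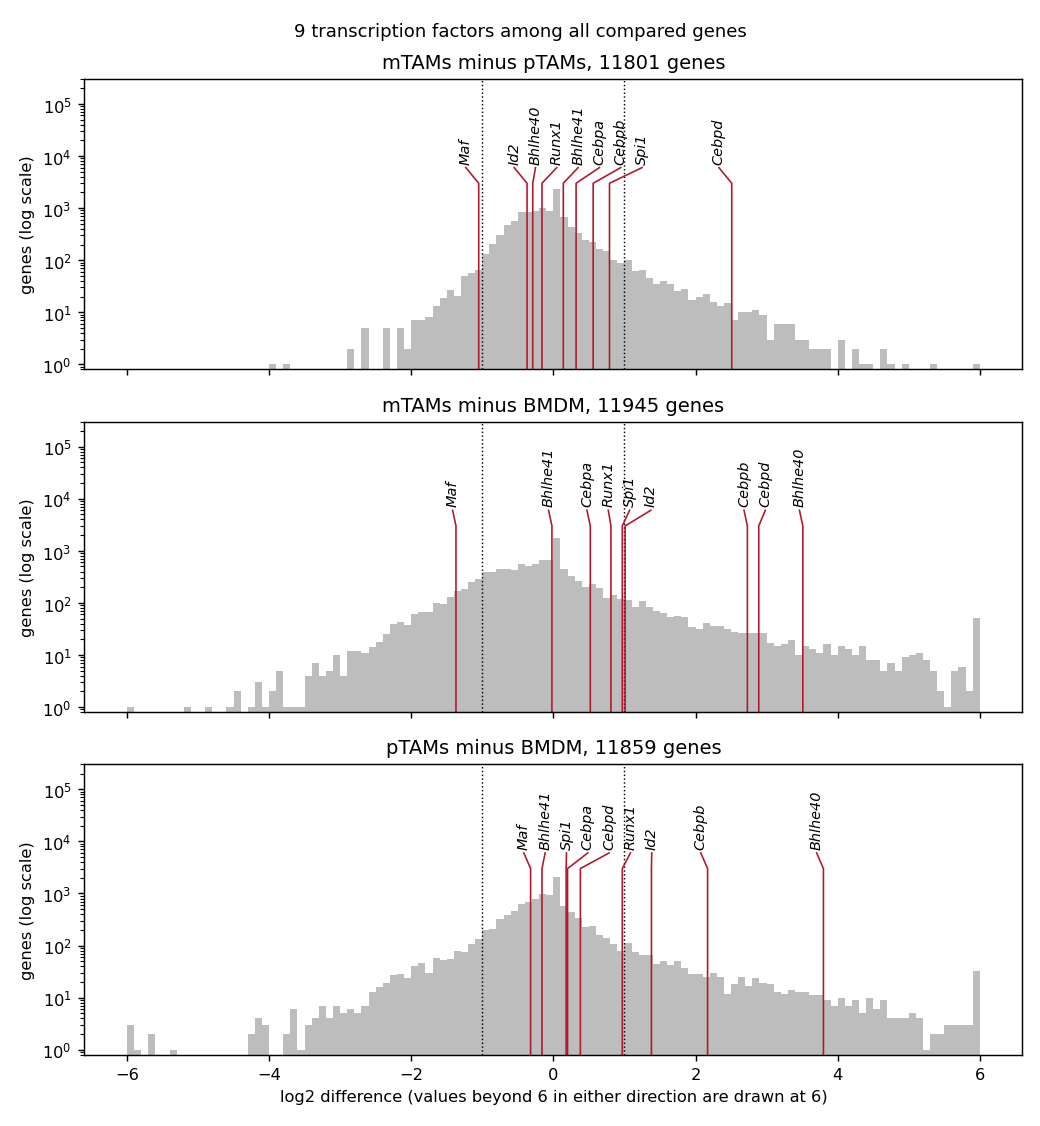
Histogram of log2 differences of all genes compared (x axis, values past 6 placed at 6; y axis, number of genes) in the 3 comparisons, with each of the 9 transcription factors marked at its own difference. *Cebpd* lies in the upper tail of mTAMs over pTAMs (2.51), *Bhlhe40* in that of mTAMs over BMDM (3.51) and pTAMs over BMDM (3.80), and *Bhlhe41* near 0 in all 3.

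The calls that TAMs shared against BMDM, *Cebpb*, *Bhlhe40* and *Id2*, stood beside higher immediate early and heat shock genes, with 16 of 18 past the 2-fold threshold on each TAM array, with medians of 3.84 in mTAMs and 3.05 in pTAMs. *Egr1*, an immediate early transcription factor, read 13.14 in mTAMs, 11.59 in pTAMs and 6.40 in BMDM, and the heat shock gene *Hspa1b* read 13.17 in mTAMs, 12.76 in pTAMs and 7.12 in BMDM. TAMs were taken out of tissue and BMDM were grown in culture, and markers of some other cells moved with the same calls. Against BMDM, 11 of 12 neutrophil markers were higher in mTAMs and 10 of 12 in pTAMs (medians 5.35 and 3.05), 4 and 5 of 6 monocyte markers (3.92 and 4.57), 5 of 7 and 6 of 8 epithelium or carcinoma markers (3.43 and 3.84) and 5 of 7 fibroblast markers in each (4.08 and 1.70). Above the floor in BMDM were 3 of 6 monocyte, 3 of 11 epithelium or carcinoma and 3 of 10 fibroblast markers. Medians in mTAMs and pTAMs were 0.0 and 0.0 for T cell and for endothelium markers. They were -0.04 and -0.04 for B cell markers, and 0.35 and 0.40 for dendritic cell markers. Single genes behind these medians did differ from BMDM. Of 5 T cell markers, *Cd3d* was 5.46-fold higher in mTAMs, and *Cd28* was at least 5.58-fold lower on both TAM arrays. Of 4 endothelium markers, *Pecam1* was higher, by at least 1.58-fold in mTAMs and 4.96-fold in pTAMs. Of 6 dendritic cell markers, 1 was higher in mTAMs and 2 in pTAMs, with *Fscn1* at least 12.7-fold and 19.3-fold above BMDM. Tumor, other cells in the sort, tissue processing and culture cannot be told apart on these arrays.

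**Figure D4:**
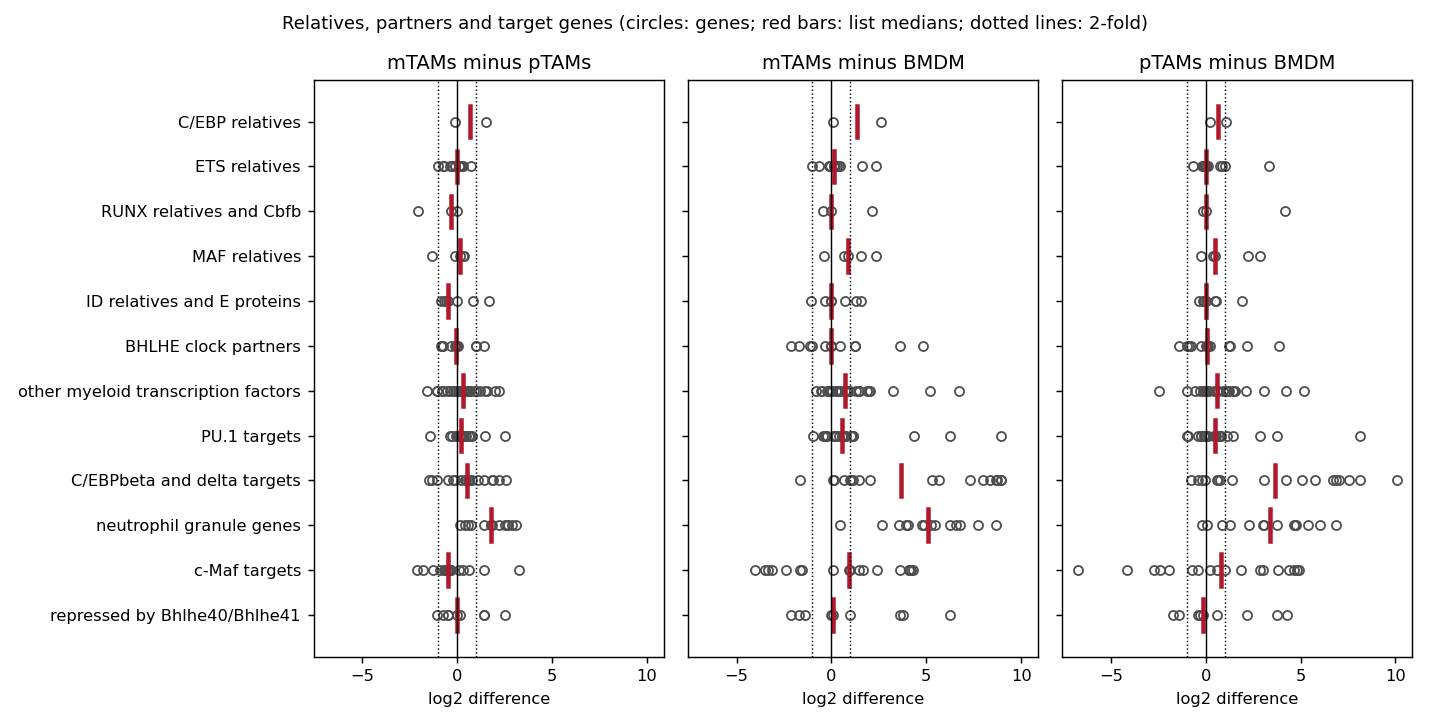
Log2 difference (x axis) of each gene compared, as a point, and the median, as a bar, of the target, partner and relative lists (y axis) in the 3 comparisons. In mTAMs over pTAMs the highest median is that of the neutrophil granule genes (1.80) and the lowest that of the relatives of Id2 with the E proteins (-0.50).

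The genes whose profile over the 3 arrays was nearest to a member were found among 11514 genes, as the Euclidean distance of levels centred on their mean, which with 3 arrays describes an array order and little more. Some of these genes were below the floor on 1 or 2 arrays, where their level and so the distance is not measured: *Nr4a3* and *Igfbp7* in BMDM, and *Rarres1* and *Lhx1* in both pTAMs and BMDM. Nearest to *Cebpb* were *Nr4a3* (0.08), *Dock9* (0.09) and *Rffl* (0.09). Nearest to *Cebpd* were *Noxred1* (0.02), *Rarres1* (0.10) and *Lhx1* (0.10). *Maf* had close neighbours in *Shmt2* (0.04), *Mrpl42* (0.05) and *Glmn* (0.05). Nearest to *Bhlhe40* were *Gbp7* (0.07), *Igfbp7* (0.12) and *Apoc2* (0.21). *Id2* lay next to *Grk3* (0.03), *Pim3* (0.04) and *Bmf* (0.06).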

How the data were processed

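RNA of 3 samples was hybridised to 1 Affymetrix mouse array each. The authors deposited 1 table of log2 values, background corrected, quantile normalized and summarised per probe set by RMA per the labels; the version and the genome build are not given in the sources used here. Of the probe sets, 34945 had 1 gene symbol in the platform annotation, 932 several and 9160 none. The gene IDs of 34741 were in the RefSeq table of GRCm38.p6, and 0 symbols differed. A gene was read from its probe set of highest mean. The floor was the 95th percentile over the arrays of 83 probe sets of olfactory, vomeronasal and bitter taste receptors. A gene entered a comparison when above the floor on either array, and a fold against a level below the floor was computed from the floor as a lower bound. Calls and medians used levels as read, also below the floor, so a called gene can have a lower bound under 2-fold. Comparisons were mTAMs over pTAMs, mTAMs over BMDM and pTAMs over BMDM, with no test, since each group had 1 array. Named genes were all members, at most 3 of each list per comparison with the largest differences and those a member's description turns on, and 3 nearest genes per member with a range of at least 1. Members and lists were chosen with earlier results of these data known. Alternatives were quantile and cyclic loess normalization, the mean over probe sets, probe sets not marked as shared, other floors and a 3-fold threshold. Array medians were 5.43, 5.43 and 5.36 in mTAMs, pTAMs and BMDM, and 11611, 11543 and 11423 genes were above the floor. Python 3.11.15, numpy 2.4.6, pandas 2.3.3, matplotlib 3.10.9, R 4.3.3 and limma 3.58.1 were used, and the scripts were tested on simulated data.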

Additional observations from a re-analysis of the deposited data

How the results depend on the processing

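Of 48 counts of members called under the alternatives, 45 stayed within 1.5 times the value given and 3 moved. Several alternatives had little or no room to move them. All 9 members were above the floor on all 3 arrays, so raising lower levels to it or dropping the filter changed no count. The deposited values were already quantile normalized. The count of members lower in mTAMs than in pTAMs became 0 with cyclic loess normalization and 0 at a 3-fold threshold, and that of members lower in mTAMs than in BMDM became 0 at a 3-fold threshold; *Maf* was the member lost in each. No direction of a called difference reversed. Of 135 member differences 123 moved by less than the probe set SD, and the other 12 came from the choice of probe sets. *Runx1* between mTAMs and BMDM was 0.25 as a mean over probe sets and -0.41 on the brightest probe set not marked as shared. *Id2* there was 1.70 and 2.91. Among the 123 were all 27 differences with levels raised to the floor, which could not shift. Quantile normalization shifted its 27 by -0.08 to 0.09. *Spi1*, *Cebpa* and *Bhlhe40* have 1 probe set, so its choice could not move them. Cyclic loess moved the median of all genes between mTAMs and BMDM from -0.11 to 0, and then 5 members were higher in mTAMs and 4 in pTAMs than in BMDM. Of 210 list medians, 196 stayed within the same bound, and 11 of the other 14 came from probe sets not marked as shared. No paired analysis was possible because each group was 1 array with no replicate number. The number of arrays limits the precision, and spread between animals was not measured.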

Other observations

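Of 30 other transcription factors known from myeloid cells, 27 were above the floor in mTAMs or pTAMs, and 6 were higher and 3 lower, with a median of 0.30. *Pparg*, which alveolar macrophages need to form, read 7.75 in mTAMs, 5.55 in pTAMs and 8.01 in BMDM on 1 probe set. The pTAMs array thus lay apart, 4.59-fold below mTAMs and 5.50-fold below BMDM, with its level near the floor. *Bcl6*, a repressor of inflammatory genes, read 10.61 in mTAMs, 8.61 in pTAMs and 9.15 in BMDM, 4.00-fold higher in mTAMs than in pTAMs. *Vdr*, the vitamin D receptor gene, was 3.03-fold lower in mTAMs (6.78) than in pTAMs (8.38). *Irf8*, which directs monocytes and dendritic cells, read 9.82 in mTAMs, 10.88 in pTAMs and 9.95 in BMDM, 2.08-fold lower in mTAMs than in pTAMs. Against BMDM 10 of 27 were higher in mTAMs and 11 of 26 in pTAMs, and 0 and 1 were lower. *Egr1* and *Nr4a1*, with the largest differences from BMDM, are 2 of the 3 factors that are also on the list of immediate early and heat shock genes.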
